A study of Mus musculus with 2 samples.

Results

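Heat shock proteins and related chaperones are described here in mouse embryonic stem cells (mESCs) that lost AIMP3. The group consisted of 10 genes: the stress-inducible *Hspa1a*, *Hspa1b*, *Hsp90aa1*, *Hspb1*, *Dnajb1* and *Hsph1*, the constitutive cytosolic *Hspa8* and *Hsp90ab1*, and the organelle chaperones *Hspa5* (endoplasmic reticulum) and *Hspd1* (mitochondria). Their probes were found through the RefSeq accession that the array lists for each probe. By this rule 9 of the 10 genes were measured, by 12 probes, among 24031 genes tested. No probe on the array carried an accession of *Hspa1b*. AIMP3f/f;cre-ERT2 mESCs have *AIMP3* alleles flanked by loxP sites and express Cre fused to an estrogen receptor, which 4-hydroxytamoxifen (4-OHT) switches on. Cells received 2 μM 4-OHT for 4 days in medium with LIF (2 replicates), and control cells of the same genotype received ethanol. Each AIMP3-depleted replicate took the Cy5 channel of its own 2-colour Agilent mouse array, and the Cy3 channel of both arrays held the same pool of RNA from the control cultures. The pool counts as 1 control sample, so the tests do not cover how much control cultures differ, and the labels do not say whether the 2 replicates came from separate experiments. Because the dyes were not swapped and all control cells received ethanol without 4-OHT, the loss of AIMP3 cannot be told apart from a dye effect of a probe or from an effect of 4-OHT and active Cre.

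Heat shock proteins bind unfolded or partly folded proteins and keep them from aggregating. HSP70 proteins work in cycles of ATP hydrolysis with J proteins, which bring in the substrate, and with nucleotide exchange factors, whereas HSP90 proteins act later on clients such as kinases and receptors, and small heat shock proteins hold unfolded proteins without using ATP. Unfolded protein in the cytosol releases the transcription factor HSF1, which binds heat shock elements in the promoters of the inducible genes, and unfolded protein in the endoplasmic reticulum acts through ATF6, IRE1 and PERK on genes such as *Hspa5*. AIMP3, encoded by *Eef1e1*, is a subunit of the multi-tRNA synthetase complex, which supplies charged tRNA for translation.

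The promoter sequences are shown first because they hold the elements through which HSF1 and the endoplasmic reticulum stress factors are known to act on such genes. RefSeq promoter windows on build GRCm38.p6, with 250 bases before and 50 after each start, were found for 7 of the 10 genes (10 windows), and *Hspa8*, *Hsp90aa1* and *Hsp90ab1* had no entry. A heat shock element was searched on both strands as 3 alternating units (GAANNTTCNNGAA or TTCNNGAANNTTC) and as 2 units (GAANNTTC or TTCNNGAA, which also occur inside the longer form), and the endoplasmic reticulum stress element as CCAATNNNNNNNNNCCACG or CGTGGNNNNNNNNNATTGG. Of all 32851 promoter windows, 0.603% held the 3-unit form, 15.1% the 2-unit form and 0.119% the endoplasmic reticulum stress element. The 250 bases before the start are printed 5′ to 3′ on the strand of the gene, and capitals mark the matches. They are *Hspb1* (chr5:135887669-135887918, plus strand), *Hspa1a* (chr17:34972157-34972406, minus strand), *Hspd1* (chr1:55087933-55088182, minus strand) and *Hspa5* (chr2:34771840-34772089, plus strand).
Hspb1: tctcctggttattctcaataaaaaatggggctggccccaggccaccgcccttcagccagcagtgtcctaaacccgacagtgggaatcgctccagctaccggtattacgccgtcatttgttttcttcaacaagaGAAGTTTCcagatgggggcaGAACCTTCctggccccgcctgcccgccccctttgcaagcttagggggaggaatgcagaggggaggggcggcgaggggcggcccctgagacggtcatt
Hspa1a: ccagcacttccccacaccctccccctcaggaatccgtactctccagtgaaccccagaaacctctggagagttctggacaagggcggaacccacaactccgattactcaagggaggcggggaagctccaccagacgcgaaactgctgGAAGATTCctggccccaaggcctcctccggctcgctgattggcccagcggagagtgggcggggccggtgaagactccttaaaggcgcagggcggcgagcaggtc
Hspd1: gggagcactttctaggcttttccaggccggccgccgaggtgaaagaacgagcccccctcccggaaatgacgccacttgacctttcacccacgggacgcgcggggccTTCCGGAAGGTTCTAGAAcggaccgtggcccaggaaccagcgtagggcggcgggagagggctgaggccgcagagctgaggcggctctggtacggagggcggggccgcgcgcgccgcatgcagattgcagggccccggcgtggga
Hspa5: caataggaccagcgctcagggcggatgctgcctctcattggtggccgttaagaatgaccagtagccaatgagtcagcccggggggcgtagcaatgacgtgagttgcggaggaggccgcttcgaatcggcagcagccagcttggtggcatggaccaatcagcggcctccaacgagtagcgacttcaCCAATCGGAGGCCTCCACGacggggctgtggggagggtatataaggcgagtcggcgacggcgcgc

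In the *Hspb1* promoter the 2-unit form began at positions -117 and -97 from the start, and in that of *Hspa1a* at -104. In the *Hspd1* promoter 2 overlapping 3-unit matches covered positions -144 to -127, and the other annotated start of *Hspd1* had no match. *Hsph1* held a 3-unit match (TTCTGGAAAGTTC) after the start, at positions 37 to 49 or 16 to 28 depending on which of its annotated starts is used, and a 2-unit match before it. The endoplasmic reticulum stress element was found in *Hspa5*, at positions -65 to -47. The letters searched were not found in the windows of *Dnajb1*. The windows of *Hspa1a* and *Hspa1b* were identical at 296 of 300 positions (98.7%), with the longest identical run at 201 bases. These genes are near copies of each other also in their coding parts, and whether the probe listed for *Hspa1a* also captures *Hspa1b* RNA was not tested, so its value is read as that of either gene.

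Each array held 62976 spots, between 59.3% and 60.6% of spots that are not controls were well above background in a channel, and 0 spots were saturated. *Eef1e1* had a log2 ratio of AIMP3-depleted over control of -0.90 ± 0.0067 (SD, n = 2; limma adjusted p = 4.7e-05), so the labelled direction was seen in the targeted gene. The methods describe the ratio as control over test, whereas all ratios here are AIMP3-depleted over control, from the dyes in the sample labels. Ratios were taken after background correction and loess normalization, and each gene is represented by its brightest probe unless another is named. A gene was called changed when its mean log2 ratio passed 1.5-fold (0.58 on the log2 scale) with an unadjusted p under 0.05 by limma, which are the thresholds of the study.

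Of the 9 heat shock and chaperone genes measured, 1 (*Hspb1*) was raised past 1.5-fold and 0 were lowered, while 5.53% of all genes were raised and 0.791% were lowered. At any fold, 6 of the 9 had a higher level with an adjusted p under 0.05 by limma (*Hspb1*, *Hspa8*, *Hspa5*, *Dnajb1*, *Hspa1a* and *Hspd1*), 0 had a lower level and 3 did not pass (*Hsp90ab1*, *Hsp90aa1* and *Hsph1*). This count depended on the processing: 5 were higher and 1 (*Hsp90aa1*) was lower with the processed signals and in the authors' deposited values, and 6 were higher and 1 (*Hsph1*) was lower with the mean of all probes. With median centring 9 of 9 were higher, but so were 54.5% of all genes, with 8.76% lower, and limma's prior degrees of freedom were infinite there, so that fit took no variance from a gene's own arrays. Among all genes 30.6% were higher and 23.7% were lower by the same rule, so a small ratio with a low adjusted p was common on these arrays. By the methods' t-test, run on each gene alone, 0 of the 9 had an adjusted p under 0.05 (lowest 0.18), and 2 (*Hspb1* and *Hspa5*) had an unadjusted p under 0.05. The median log2 ratio of the 9 genes was 0.24, with 0.22 on each array, against 0.016 for all genes tested. By class, the median was 0.24 for the 5 inducible genes (range -0.12 to 0.76), 0.28 for the 2 constitutive genes (0.14 and 0.42) and 0.29 for the 2 organelle genes (0.15 and 0.42). The ranges of the classes overlapped, and *Hspb1* was the inducible gene above all constitutive and organelle members.

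**Figure D1:**
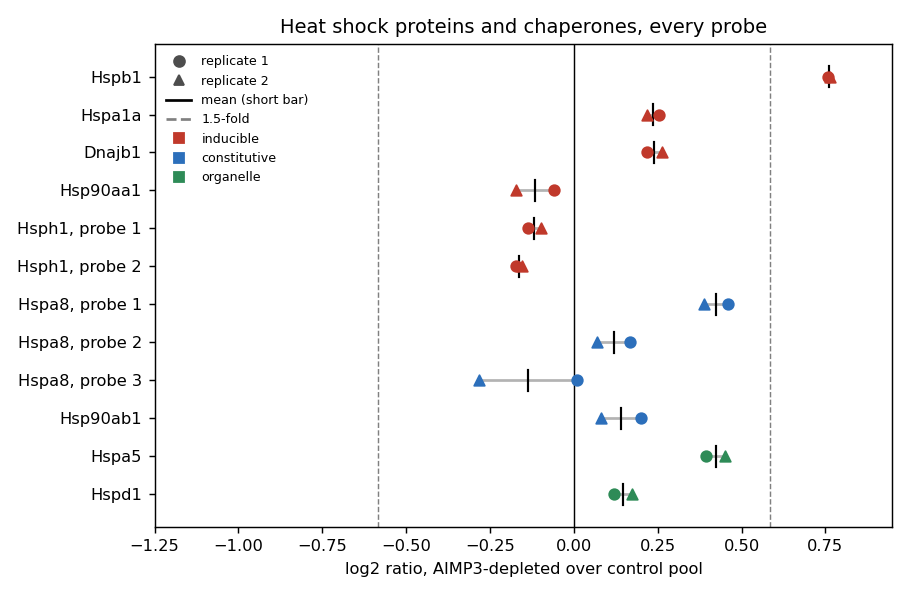
Log2 ratio of AIMP3-depleted over control for each of the 12 probes (x axis), with circles for replicate 1, triangles for replicate 2, short bars for the mean of both arrays and dashed lines at 1.5-fold. *Hspb1* lies beyond 1.5-fold on both arrays (0.76 and 0.76), *Hsp90aa1* and *Hsph1* lie below 0 on both, and the 3 probes of *Hspa8* spread from -0.14 to 0.42.

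*Hspb1*, which encodes the small heat shock protein HSP27, an ATP-independent holder of unfolded proteins that also acts on actin, had the highest ratio of the group. Its normalized log2 level was 16.44 and 16.56 in the control pool on the arrays of replicates 1 and 2, and 17.20 and 17.32 in AIMP3-depleted RNA. Both AIMP3-depleted levels lay above both control levels by more than the arrays differed from each other. The log2 ratio was 0.76 ± 0.0032 (SD, n = 2; limma adjusted p = 6.8e-05), a 1.69-fold rise, and 97.0% of all genes had a lower ratio. It was the member with the closest match between arrays, whose ratios were 0.76 and 0.76.

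*Hspa1a*, the classical stress-induced cytosolic HSP70, was dim in these cells. The raw signal of its probe was 3.17 and 3.41 times the local background in the control pool and 4.95 and 4.48 times in AIMP3-depleted RNA. Its normalized log2 level was 7.79 and 7.97 in control and 8.05 and 8.19 in AIMP3-depleted RNA, so the channels did not overlap, but the gap between them was smaller than the distance between the arrays within either channel. The log2 ratio was 0.24 ± 0.026 (SD, n = 2; limma adjusted p = 0.0052), 1.18-fold and under the fold threshold. The 95% interval of the ratio, from the spread shared across genes, reached from 0.13 to 0.34. It does not cover how much control cultures differ. The offset of 50 added to both channels also draws the ratio of so dim a probe toward 0. The interval therefore cannot exclude a rise past 1.5-fold.

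*Dnajb1*, the J protein HSP40 that partners with inducible HSP70, gave nearly the same ratio as *Hspa1a*. Its log2 level was 13.33 and 13.29 in control and 13.55 and 13.56 in AIMP3-depleted RNA, again without overlap. The log2 ratio was 0.24 ± 0.030 (SD, n = 2; limma adjusted p = 0.0048). The inducible J protein and the inducible HSP70 were thus both slightly higher and both short of 1.5-fold.

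*Hsph1*, the HSP110 protein that exchanges nucleotide on HSP70, and *Hsp90aa1*, the inducible cytosolic HSP90, lay on the other side of 0. *Hsph1* had log2 levels of 13.62 and 13.56 in control and 13.49 and 13.46 in AIMP3-depleted RNA, a ratio of -0.12 ± 0.026 (SD, n = 2; limma adjusted p = 0.063). Its other, dimmer probe gave -0.16, with an adjusted p of 0.027 in the limma fit over all probes. Both probes were lower on both arrays, and in the median-centred data both were above 0 (0.15 and 0.07) but below the median of all genes, which was then 0.18. *Hsp90aa1* had log2 levels of 16.59 and 16.67 in control and 16.53 and 16.49 in AIMP3-depleted RNA, and its ratio was -0.12 ± 0.080 (SD, n = 2; limma adjusted p = 0.091). The ratio of *Hsp90aa1* on the 2 arrays was -0.06 and -0.17, and it was -0.31 with the processed signals (limma adjusted p = 0.026), -0.27 in the authors' deposited values (limma adjusted p = 0.032) and 0.36 with median centring, above the median of all genes (0.18) and below that of bright probes (0.65).

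**Figure D2:**
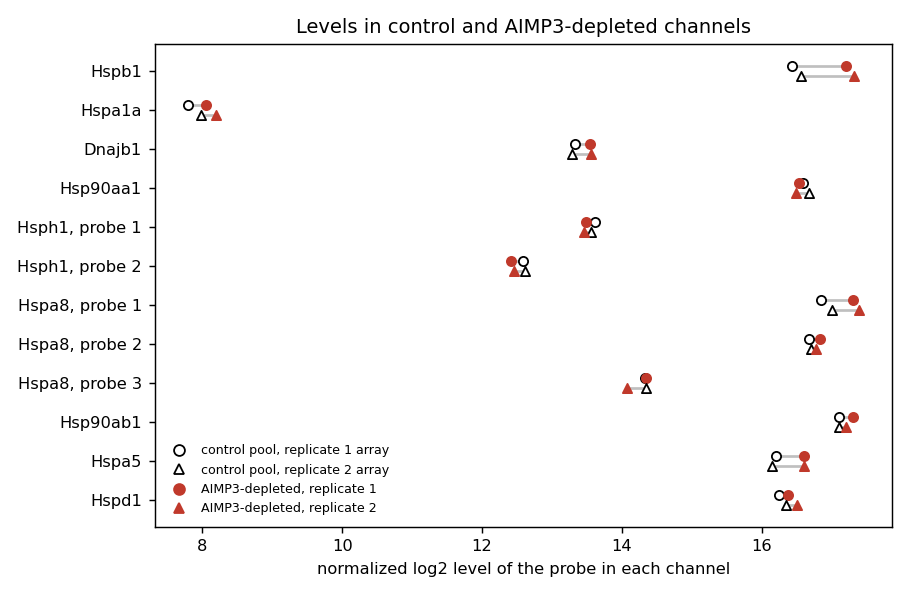
Normalized log2 level of each of the 12 probes (x axis) in the control pool (open symbols) and in AIMP3-depleted RNA (filled symbols), circles for replicate 1 and triangles for replicate 2. The levels in AIMP3-depleted RNA are above both control levels for 8 probes and below both for 3 probes, and they overlap for probe 3 of *Hspa8*.

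Over the 12 probes, both AIMP3-depleted levels were above both control levels in 8, below both in 3 and overlapping in 1. Across all tested probes 37.7% were above and 34.4% below in the same way. The control pool was the same RNA on both arrays, so the distance between its own levels is technical, and its median over all tested probes was 0.056 on the log2 scale. The corresponding median between the AIMP3-depleted replicates was 0.070. The ratios of *Hsp90aa1*, *Hsph1*, *Hsp90ab1* and *Hspd1* were each at most 0.15 in size, and those of *Hspb1*, *Hspa5* and the brightest probe of *Hspa8* were several times these distances.

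The constitutive members were *Hspa8*, the housekeeping HSP70 (HSC70) that also uncoats clathrin vesicles, and *Hsp90ab1*, the housekeeping HSP90. The brightest probe of *Hspa8* had log2 levels of 16.85 and 17.00 in control and 17.31 and 17.39 in AIMP3-depleted RNA, and its ratio was 0.42 ± 0.050 (SD, n = 2; limma adjusted p = 0.00058), or 1.34-fold. The next probe gave 0.12 ± 0.069 (SD, n = 2), from levels of 16.67 and 16.71 against 16.83 and 16.78, with an adjusted p of 0.091 in the limma fit over all probes. The dimmest probe gave 0.01 in replicate 1 and -0.28 in replicate 2, and its levels overlapped (14.33 and 14.35 against 14.34 and 14.07). The 3 probes of *Hspa8* therefore disagreed in size and sign, and their mean was 0.14 (limma adjusted p = 0.068). A higher level of *Hspa8* rests on its brightest probe.

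*Hsp90ab1* had log2 levels of 17.10 and 17.11 in control and 17.30 and 17.20 in AIMP3-depleted RNA. Its ratio was 0.14 ± 0.084 (SD, n = 2; limma adjusted p = 0.052), with 0.20 and 0.08 on the arrays, and it turned to -0.07 when the signals processed by the scanner software were used and to -0.03 in the authors' deposited table. The inducible *Hsp90aa1* lay below the constitutive *Hsp90ab1* by 0.26 in replicate 1 and by 0.25 in replicate 2. This distance was between 0.24 and 0.30 under each background correction, dye normalization and source of values tried, although the sign of each single ratio was not kept. The HSP70 pair gave no stable order, since *Hspa8* was 0.19 above *Hspa1a* with its brightest probe, 0.02 below it with the processed signals (a difference of -0.02), and 0.10 below it with the mean of its probes (-0.10). Neither difference between genes was tested.

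The organelle members were *Hspa5*, which encodes BiP, the HSP70 of the endoplasmic reticulum, and *Hspd1*, which encodes HSP60, the chaperonin of the mitochondrial matrix. *Hspa5* had log2 levels of 16.21 and 16.15 in control and 16.61 and 16.60 in AIMP3-depleted RNA. Its ratio of 0.42 ± 0.039 (SD, n = 2; limma adjusted p = 0.00054) was 1.34-fold. The 95% interval from 0.31 to 0.53 stayed under 1.5-fold after this normalization, but it does not cover how much control cultures differ. *Hspd1* had log2 levels of 16.25 and 16.34 in control and 16.37 and 16.51 in AIMP3-depleted RNA, and its ratio was 0.15 ± 0.039 (SD, n = 2; limma adjusted p = 0.033). The channels of *Hspd1* did not overlap when all 4 levels are compared, but the gap between them was smaller than the distance between replicates.

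**Figure D3:**
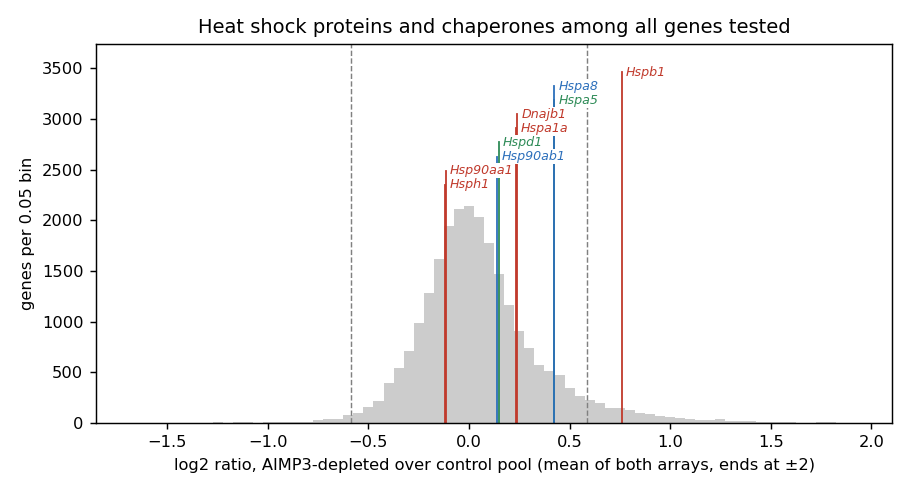
Distribution of the log2 ratio over all 24031 genes tested (grey, genes per bin of 0.05), with coloured lines at the 9 measured heat shock and chaperone genes (red, inducible; blue, constitutive; green, organelle) and dashed lines at 1.5-fold. *Hspb1* is the member beyond the dashed line, and the heights of the coloured lines carry no value.

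Several of these probes were among the brightest on the array, where the ratio depended on how the dyes were normalized. Of the 33022 probes tested, 931 had a mean log2 level above 16, and 7 of the 12 probes of the group were among them. After loess these 931 probes had a median log2 ratio of 0.15, with median centring 0.65, and with the processed signals -0.00072. Against the median of 0.15, *Hspb1* (0.76), *Hspa5* (0.42) and the brightest probe of *Hspa8* (0.42) were higher, whereas *Hspd1* (0.15) was close to it and *Hsp90ab1* (0.14), the next probe of *Hspa8* (0.12) and *Hsp90aa1* (-0.12) were lower.

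The ratio of *Hspb1* was over 1.5-fold under each of the 10 settings examined, between 0.64 with the processed signals and 1.26 with median centring. These settings are not independent. For a gene with 1 probe, such as *Hspb1*, both filters and the mean of all probes could not change the ratio (0.76). Each replicate alone gives a value that the main mean already holds. The authors' table is the scanner's ratio plus a constant on each array. *Hspa5* lay between 0.32 and 0.89, *Dnajb1* between 0.22 and 0.50, *Hspa1a* between 0.22 and 0.33 and *Hspa8* between 0.14 and 0.94, all positive in all 10. *Hspd1* was also positive in all 10 settings, between 0.07 and 0.61, but its adjusted p was under 0.05 in 5 of the 8 settings with a limma test. With median centring 5 of the 9 genes were raised past 1.5-fold, but so were 2827 of all 24031 genes, and 543 of the 931 bright probes passed 1.5-fold, against 74 after loess. Median centring also moved the median of all genes from 0.016 to 0.18, and relative to that median *Hspb1* was at 1.08, *Hspa8* at 0.76 and *Hspa5* at 0.71.

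**Figure D4:**
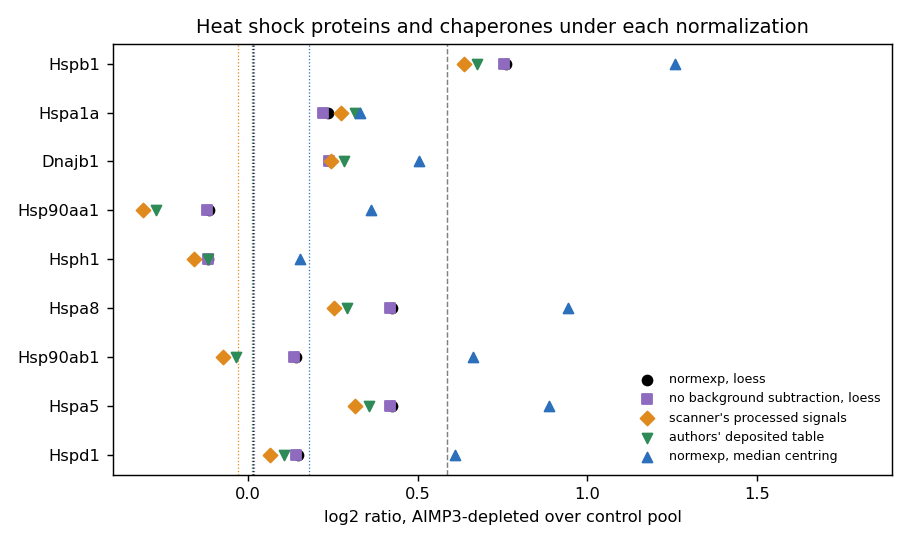
Log2 ratio of the 9 measured genes (x axis) under 5 background corrections and dye normalizations, with a dotted line of the same colour at the median of all genes in each and a dashed line at 1.5-fold. *Hspb1* is past the dashed line in all 5, median centring gives the highest value for every gene, and *Hsp90aa1*, *Hsph1* and *Hsp90ab1* change sign between them, with *Hsph1* to the left of the dotted line in all 5.

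The remaining genes of the chaperone network were taken from lists of known function, in which a gene can stand in more than 1 list. Of 139 related genes 132 were tested, and 6 were raised and 1 was lowered past 1.5-fold, next to 5.53% and 0.791% of all genes. At any fold, 38 were higher and 44 were lower with an adjusted p under 0.05 by limma, next to 30.6% and 23.7% of all genes. The genes called were *Cryab*, *Serpinh1*, *Bag2*, *Dnaja4*, *Ddit3* and *Ppp1r15a*, which were raised, and *Sil1*, which was lowered. With median centring 17 related genes passed, all raised, and with the values that the authors deposited 12 passed, 10 raised and 2 lowered.

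Of 6 tested small heat shock proteins other than *Hspb1*, 1 was raised past 1.5-fold and 5 were higher with an adjusted p under 0.05 by limma, next to 5.53% and 30.6% of all genes, with a median log2 ratio of 0.54. The count past 1.5-fold was 2 with the processed signals, 3 with median centring and 3 in the authors' deposited values, and by fold alone it was 3 without replicate 1 and 2 without replicate 2. *Hspb8* (0.57 and 0.60 in replicates 1 and 2), *Hspb2* (0.51 and 0.62) and *Cryaa* (0.72 and 0.32), named after their values were seen, each passed 1.5-fold in 1 replicate. *Cryab*, the αB-crystallin that assembles with HSP27, had 1.34 and 1.41 on the arrays, a mean of 1.38 ± 0.046 (SD, n = 2; limma adjusted p = 3.2e-05), and its other probe gave 1.08. The lowest was *Hspb9*, a testis small heat shock protein, with -0.14 (limma adjusted p = 0.10). The median of these 6 genes stayed between 0.53 and 0.65 under the background corrections and normalizations tried, and over all 8 genes on the array, with no filter on dim probes, it was 0.33.

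Among 15 other tested genes that HSF1 is known to regulate, 2 were raised past 1.5-fold (*Cryab* and *Serpinh1*) and 0 were lowered, next to 5.53% and 0.791% of all genes. The count raised was 3 with the processed signals and in the authors' deposited values, 6 with median centring and, by fold alone, 4 without replicate 1. At any fold 7 were higher and 3 were lower with an adjusted p under 0.05 by limma, next to 30.6% and 23.7% of all genes, and the median was 0.09. With median centring 11 were higher and 0 were lower, next to 54.5% and 8.76% of all genes, and the median was 0.40, or 0.22 relative to all genes. *Serpinh1* encodes HSP47, the collagen chaperone of the endoplasmic reticulum, and had 0.69 on both arrays (limma adjusted p = 9.0e-05). Of the 4 genes of heat shock factors and their regulator, 0 were past 1.5-fold, *Hsbp1*, which encodes a binding protein that restrains HSF1, was the highest (0.32, limma adjusted p = 0.0015), and *Hsf2*, a second heat shock factor, was the lowest (-0.48, limma adjusted p = 0.00037). Of 64 tested genes with a 3-unit heat shock element in the promoter window 3 were raised and 1 was lowered past 1.5-fold, with a median of 0.016. Of 1665 with the 2-unit form, 117 were raised and 19 were lowered, with a median of 0.038. Among the members that form was found in *Hspb1*, *Hspa1a*, *Hspa1b*, *Hspd1* and *Hsph1*, the last of which had a ratio of -0.12. Of all 11878 tested genes with a window, 761 were raised and 110 were lowered, with a median of 0.027.

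Of 8 other HSP70 family genes 0 passed 1.5-fold, although 1 did with the processed signals, with median centring, in the authors' deposited values and, by fold alone, without replicate 1, and the ratios reached from -0.13 in *Hspa9*, the mitochondrial HSP70, to 0.56 in *Hspa4l*, an HSP110 relative. Of 39 other J proteins 1 was raised past 1.5-fold, next to 5.53% of all genes, and 10 were higher and 12 were lower with an adjusted p under 0.05 by limma, near the shares of all genes (30.6% and 23.7%). With median centring 3 were raised, 25 were higher and 5 were lower, next to 54.5% and 8.76% of all genes. The gene raised in the main analysis was *Dnaja4*, a cytosolic J protein, with 0.75 and 0.64 on the arrays. Without background subtraction 2 J proteins were raised. With the processed signals and in the authors' deposited values 2 were raised and 1 was lowered. Of 12 nucleotide exchange factors and adaptors 1 was raised and 1 was lowered past 1.5-fold, next to 5.53% and 0.791% of all genes. *Bag2*, which releases nucleotide from HSP70 and restrains the ubiquitin ligase CHIP, had 0.68 and 0.71 on the arrays. *Sil1*, the exchange factor of BiP, had -0.61 and -0.66, a mean of -0.64 ± 0.037 (SD, n = 2; limma adjusted p = 0.00013), and -0.38 with median centring.

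Of 15 tested genes of the HSP90 family and its co-chaperones 0 passed 1.5-fold, while 1 was higher and 7 were lower with an adjusted p under 0.05 by limma, next to 30.6% and 23.7% of all genes, with a median of -0.11. The lowest was *Ptges3*, which encodes the co-chaperone p23 (-0.51), and the highest was *Fkbp8* (0.18). The 4 probes of *Ptges3* reached from -0.51 to -0.04. Of the 14 subunits of TRiC and of prefoldin, which folds actin and tubulin with it, 0 passed 1.5-fold, 0 were higher and 11 were lower with an adjusted p under 0.05 by limma, next to 23.7% of all genes. Their median was -0.29, from -0.42 in *Cct4* to 0.15 in *Pfdn1*. With median centring the median of the TRiC and prefoldin genes was 0.07 (-0.11 relative to all genes), with 3 higher and 1 lower by an adjusted p under 0.05, and that of the HSP90 list was 0.22 (0.04 relative to all genes), with 9 higher and 0 lower. The lower calls of both lists thus depended on the dye normalization. Relative to all genes the TRiC and prefoldin median was below 0 in all 10 settings, between -0.33 and -0.11, whereas that of the HSP90 list was above 0 with median centring.

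Of 16 endoplasmic reticulum chaperones and folding enzymes other than *Hspa5*, 1 was raised (*Serpinh1*) and 1 was lowered (*Sil1*) past 1.5-fold, and 5 were higher and 4 were lower with an adjusted p under 0.05 by limma, near the shares of all genes (30.6% and 23.7%). Their median was 0.05. With median centring 3 were raised, 0 were lowered, 13 were higher and 1 was lower, next to 54.5% and 8.76% of all genes, and the median was 0.30, or 0.12 relative to all genes. Of 12 regulators of the unfolded protein response 2 were raised and 0 were lowered past 1.5-fold, next to 5.53% and 0.791% of all genes. At any fold 6 were higher and 2 were lower with an adjusted p under 0.05 by limma, next to 30.6% and 23.7% of all genes. Their median was 0.14. The raised genes were *Ddit3*, which encodes the stress transcription factor CHOP (0.92 and 0.85 in replicates 1 and 2, limma adjusted p = 5.2e-05), and *Ppp1r15a*, which encodes GADD34, the phosphatase subunit that restores translation (0.57 and 0.60, limma adjusted p = 0.00016). *Ppp1r15a* was just past the threshold, and it was at 0.56, under it, with the processed signals and at 0.57, also under it, without replicate 2. Of 15 mitochondrial chaperones and proteases other than *Hspd1* 0 passed 1.5-fold, while 1 was higher and 6 were lower with an adjusted p under 0.05 by limma, next to 30.6% and 23.7% of all genes. Their median was -0.08, with median centring it was 0.21 (0.03 relative to all genes) with 11 higher and 0 lower, and the ratios reached from -0.34 in *Dnajc19* to 0.15 in *Hscb*. The other probe of *Dnajc19* gave 0.43.

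**Figure D5:**
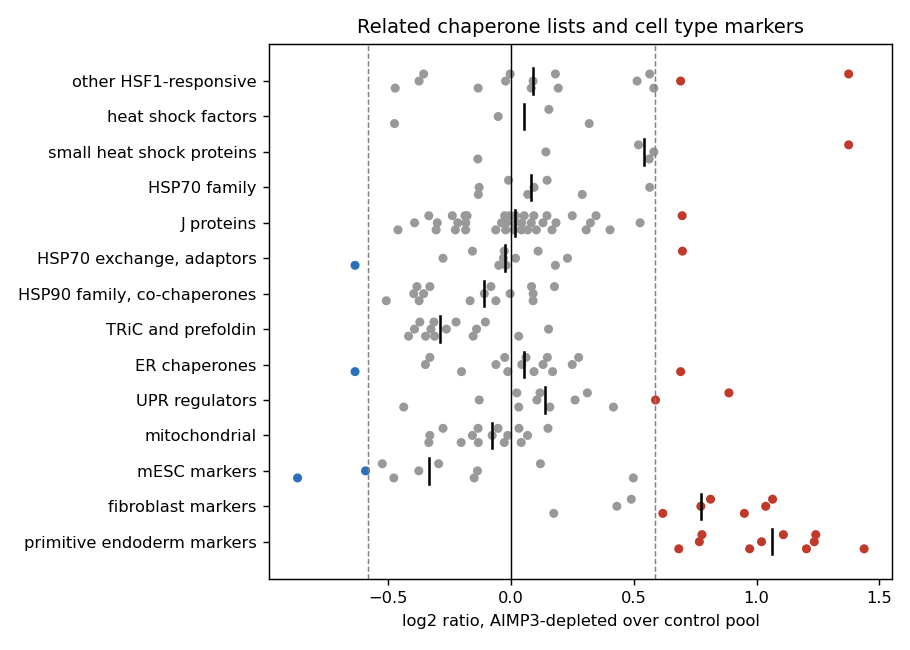
Log2 ratio of each tested gene (points, x axis) in 11 lists of related chaperone genes and 3 lists of cell type markers, with black bars at the median of each list, red for genes raised and blue for genes lowered past 1.5-fold, grey for others and dashed lines at 1.5-fold. The small heat shock proteins have a median of 0.54, TRiC and prefoldin -0.29, and the medians of the fibroblast and primitive endoderm markers lie above those of all 11 chaperone lists.

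The labels describe mESCs that are usually kept on mouse embryonic fibroblast feeders, and the methods describe fibroblast-conditioned medium for drug treatment. All 10 mESC markers were tested, *Pou5f1* (-0.48), *Nanog* (-0.38, and 0.06 by its other probe) and *Sox2* (-0.53) were lower by the brightest probe, and the 10 ranged from -0.87 to 0.50, with 8 lower and 1 higher by an adjusted p under 0.05 by limma, next to 23.7% and 30.6% of all genes. Of 9 tested fibroblast markers 6 were raised past 1.5-fold, next to 5.53% of all genes, including *Col1a1* (1.06) and *Col3a1* (0.95), and the 9 ranged from 0.17 to 1.06. All 10 primitive endoderm markers were raised, from 0.68 to 1.44. In bulk RNA a larger share of cells of a type and more RNA per cell cannot be told apart. The log2 of the summed level of the fibroblast markers was 14.31 and 14.36 in the control pool and 15.17 and 15.19 in AIMP3-depleted RNA, and that of the primitive endoderm markers was 17.43 and 17.49 against 18.53 and 18.53. The endoderm sum was set mostly by *Sparc*, *Lamb1* and *Lama1*, named after their values were seen. Their control levels on the replicate 1 array were 16.42, 15.38 and 15.18, against 8.67 for *Gata4* and 8.27 for *Gata6*. The mESC markers had a median of -0.34 (-0.05 with median centring, or -0.23 relative to all genes), and *Fgf4* (-0.87) and *Tdgf1* (-0.59) were lowered past 1.5-fold, next to 0.791% of all genes. With the processed signals and in the authors' deposited values 1 was lowered. With median centring 0 were lowered and 1 was raised. By an adjusted p under 0.05 from limma 2 were then higher and 5 were lower, next to 54.5% and 8.76% of all genes. The summed level of the mESC markers was 18.31 and 18.30 against 18.34 and 18.29, a sum in which *Dppa5a*, named after its values were seen, was the brightest gene and had a ratio of 0.50. Each tested marker was clearly above background in all channels, the control pool included. *Hspb1*, *Cryab* and *Serpinh1*, the chaperone of the collagens in the fibroblast list, moved in the same direction as the fibroblast and endoderm markers, and the part of such cells in their ratios was not tested.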

How the data were processed

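Gene expression was measured on 2 arrays, 1 for each AIMP3-depleted replicate. The authors deposited the scanner output of Feature Extraction (version 11.5.1.1 in the file header, array design on mm9), with median spot and local background intensities that are not normalized. The processed intensities that the authors deposited were background-subtracted and dye-normalized by that software. Its log10 ratio per spot, also deposited, was converted to log2 and tested with limma as the setting called processed signals. The software's p-value per spot, also deposited, was not used. The authors' deposited table holds log2 ratios after GeneSpring. They were equal, within 0.01 for 99.4% of probes, to the scanner's log2 ratio plus 0.040 and 0.039, so scale and direction are known, and the column medians were 0.091 and 0.11. All its columns of values were used (0 left out).

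Intensities were corrected with limma's normexp (offset 50) and loess within each array. Control spots and outlier-flagged spots (215 and 227) were dropped. Probes that exceeded background clearly in 1 channel or both, on each array, were tested (33022 of 55681), and the brightest probe stood for a gene. Probes were named by accession from a table of RefSeq genes (14981 of 24031 genes matched, the others keep the listed name). The mean log2 ratio was tested against 0 with lmFit and eBayes (1 residual and 5.29 prior degrees of freedom), with Benjamini-Hochberg adjustment over all genes. Median signal over background was 2.68 to 3.31. Precision is limited by having 2 arrays. The named genes are all members, of each list the genes past 1.5-fold or else its highest and lowest, and selected markers. Members, lists and rules were chosen with earlier results of these data known. The alternatives were other background corrections, normalizations, filters, probe rules, thresholds and tests, the authors' table and each replicate left out. The steps were tested on simulated data. R 4.3.3, limma 3.58.1, data.table (version 1.17.8), pandas 2.3.3 and matplotlib 3.10.9 were used.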

Additional observations from a re-analysis of the deposited data

How the results depend on the processing

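*Hspb1* remained the single member past 1.5-fold under no background subtraction, the processed signals, both filters, the mean of all probes, the authors' table, the methods' t-test and either replicate alone, while median centring gave 5 members and a 2-fold threshold 0. The median of the members was 0.22 without background subtraction, 0.24 with the processed signals, 0.61 with median centring, 0.15 with the mean of all probes, 0.28 in the authors' table, and 0.22 and 0.22 when either replicate was left out. Over all genes, 1518 were changed (87.5% raised), against 2716 (71.6% raised) with the processed signals, 2891 (97.8% raised) with median centring, 2748 (77.5% raised) in the authors' table, 993 with the methods' t-test and 298 at 2-fold, and 1522 to 1651 with 1 replicate. The related lists, whose alternatives were chosen after seeing the data, held 7 changed genes, 17 with median centring and 12 in the authors' table.

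*Hsp90ab1* reversed with the processed signals (-0.075) and in the authors' table (-0.035). *Hsp90aa1* (0.36), both probes of *Hsph1* (0.15 and 0.071) and the dimmest probe of *Hspa8* (0.18) were above 0 with median centring, which moved the median of all genes to 0.18. Relative to that median *Hsph1* stayed below 0 (-0.028) and *Hsp90aa1* was at 0.18. The cause was not tested. By the methods' t-test on the same ratios *Hspb1* had an unadjusted p of 0.0019 and an adjusted p of 0.18, and the adjusted p of the 9 members lay between 0.18 and 0.41. Leaving out a replicate gives a fold with no test. The control pool was not replicated, and *Hspa1a* was dim, which limits its precision. No paired analysis was possible because the labels give 1 group of replicates and the control is 1 pool.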
